A study of Mus musculus with 6 samples.

Results

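The 55 genes described here are splicing regulators of the SR, Tra2, hnRNP, Rbfox, Nova, Ptbp, Elavl, Celf and Mbnl families, taken by their gene names from the 47729 genes of the deposited table, together with their 444 listed transcripts of 115220 in all. They carry 54 names, since Nova2 is listed under a second gene identifier that stayed below 0.2 FPKM in each library. Names that mark a pseudogene or an antisense gene were left out, which removed 2 transcripts. The families hold 11 Srsf, 2 Tra2, 20 Hnrnp, 3 Rbfox, 3 Nova, 3 Ptbp, 4 Elavl, 6 Celf and 3 Mbnl genes.

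RNAseq of the RNA bound to tagged ribosomes in mPFC D2 neurons gave 3 libraries for Ctrl and 3 for Gsk3sKO in mPFC D2 (called Gsk3sKO below). All mice were adult male D2Cre/LSL-Flag-Cas9/RiboTag animals on a C57BL/6 background, so Ctrl and Gsk3sKO shared the D2Cre bacterial artificial chromosome transgene, Cre-dependent Flag-Cas9 and the hemagglutinin-tagged Rpl22 of the RiboTag allele. Ctrl mice received AAV GFP and Gsk3sKO mice AAV Gsk3sgRNA/GFP in the mPFC, which was dissected 3 weeks later, so the Ctrl virus carried no sgRNA, and in both groups Cas9 and the tag depend on where the D2Cre transgene is active. The labels do not say whether a library came from 1 mouse or from a pool, so p-values here rest on how far these libraries differ, which can be technical spread alone.

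SR proteins bind exons through RNA recognition motifs and recruit the spliceosome with a domain rich in arginine and serine, whereas hnRNP proteins coat nascent RNA and often oppose exon use. The Rbfox, Nova, Elavl, Celf and Mbnl proteins and Ptbp2 shape the exons that neurons use, and many of these genes also splice their own RNA, by an exon or a kept intron that brings a premature stop codon and leads to nonsense-mediated decay. GSK3β is a serine/threonine kinase, and the phosphorylation of splicing proteins is not seen by a measurement of RNA.

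Values are FPKM, fragment numbers divided by transcript length and by the mapped total of the library, and adding up the transcripts of a gene gave its gene total. Differences were tested by limma, on log2(FPKM + 1), for every transcript or gene total of the table with a mean of at least 1 FPKM, and a feature is termed called at an unadjusted p under 0.05. The table holds no read counts and the low values did not give whole reads back, so the depth is unknown and a small value carries an error that cannot be stated. Between 40787 and 55841 transcripts per library were above 0. The targeted gene, Gsk3b, had gene totals of 35.6, 53.8 and 56.5 FPKM in Ctrl and 36.9, 37 and 33.6 FPKM in Gsk3sKO, with Ctrl replicate 1 under 2 of the Gsk3sKO libraries (limma log2 fold change -0.40 ± 0.19 SE, unadjusted p = 0.0648, adjusted p = 0.773), while 1 of its 2 tested transcripts was called lower. The paper assessed the knockout by protein, in D2Cre/LSL-Flag-Cas9 mice. There GSK3β staining was missing from most mPFC neurons with both Flag-Cas9 and the sgRNA virus, which the RNA level does not measure. Drd2, which defines the labelled cells, was at 1.58, 6.02 and 14.1 FPKM in Ctrl and 8.32, 5.96 and 7.28 FPKM in Gsk3sKO, and the summed level of 6 neuronal markers was 2229 to 2360 FPKM in Ctrl and 2184 to 2432 FPKM in Gsk3sKO, with 0 of the 6 called. Markers of other cells were also present. The 6 astrocyte markers summed to 145 to 177 FPKM in Ctrl and 144 to 192 in Gsk3sKO with 0 called, and the 5 endothelial markers to 10.7 to 38.4 and 16.9 to 35.1 FPKM with 0 called. Of the 6 oligodendrocyte markers, which summed to 118 to 183 FPKM in Ctrl and 128 to 165 in Gsk3sKO, 3 were called lower (Cnp, Mag and Mog, the last at 0 in Gsk3sKO replicates 2 and 3), and of 5 tested microglial markers, with sums of 14.2 to 25.3 and 12.4 to 15.4 FPKM, 1 was called lower (C1qa). Their part in the values of the splicing regulators was not tested, and in such bulk samples fewer cells of a type and less RNA per cell cannot be told apart.

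The summed level of the splicing regulators differed between the groups by less than the spread of the libraries. Their summed FPKM was 2962, 2641 and 2802 FPKM in Ctrl and 2727, 2593 and 3093 FPKM in Gsk3sKO, or 2802 ± 160.3 and 2804 ± 259 (SD, n = 3 each; 2-sided exact permutation test, p = 1). Over all transcripts of the table the sum was 608528, 550660 and 414548 FPKM in Ctrl and 422109, 398586 and 385795 FPKM in Gsk3sKO. The members held 0.487, 0.48 and 0.676% of that sum in Ctrl and 0.646, 0.651 and 0.802% in Gsk3sKO, with overlap. This share was not tested. Of the 53 gene totals that passed the filter, 1 was called, Hnrnpk, which was lower in Gsk3sKO, against 6.56% of the 12874 gene totals tested in the table and 5.2% called lower. None reached an adjusted p under 0.05 with limma, beside 0.0466% of all gene totals, and the lowest adjusted p was 0.708. The groups did not overlap in 3 of the 53, Hnrnpk, Hnrnpa0 and Srsf6, each lower in Gsk3sKO, beside 12% of all gene totals. Their log2 fold changes had a median of -0.02 (25 above and 28 below 0), beside -0.06 for all gene totals, and it turned to 0.04 when each library was rescaled to its median ratio, which moved the median of all gene totals to -0.0034.

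Gene totals of the members varied less between libraries of a group, by the median, than all gene totals tested, and their transcripts varied more than all transcripts. Within a group, the coefficient of variation of their gene totals had a median of 15.3%, beside 21% for all tested gene totals, whereas that of their transcripts was 59.3% beside 45.6%. Members and the table as a whole were not matched for level or for the number of transcripts listed per gene. For 18 gene totals the 95% interval of the log2 fold change lay within 0.5 of 0, and for 46 it lay within 1. Changes smaller than these widths could not be told from the spread. Libraries of the same group differed in which regulators they held most of. Gsk3sKO replicate 3 had the highest gene total for 16 of the 53 members (30.2%), beside 17.7% of all tested gene totals. Of these 16, 10 were among the 20 Hnrnp genes. Ctrl replicate 1 had the highest for 11 members (20.8%), 6 of the 11 Srsf genes among them, beside 20.4% of all. These shares were not tested.

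**Figure D1:**
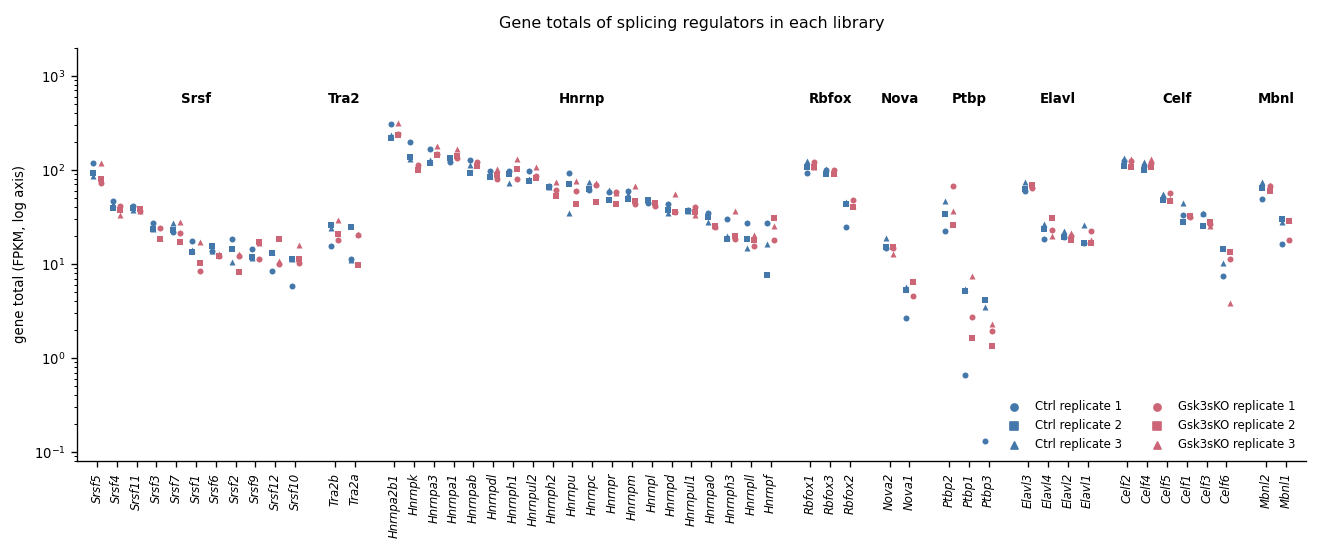
Gene totals of the 53 tested splicing regulators in FPKM on a log axis, by family and in falling order of the Ctrl mean, with 1 point per library (blue Ctrl, red Gsk3sKO; circle, square and triangle for replicates 1, 2 and 3). Hnrnpa2b1 has the highest Ctrl mean, 254 FPKM, and Ptbp3 the lowest, 2.58 FPKM, and blue and red points overlap for all genes but Hnrnpk, Hnrnpa0 and Srsf6.

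The Hnrnp family had the highest summed level of the families, and Hnrnpk among them was the one gene total that passed the test. Hnrnpk (chromosome 13, 58391142 to 58403343 of GRCm38, reverse strand) encodes a protein with KH domains that binds cytosine-rich RNA. Its gene total was 200.2, 136 and 129.7 FPKM in Ctrl and 112, 101 and 112 FPKM in Gsk3sKO. Each Gsk3sKO library lay below each Ctrl library, and Ctrl replicate 1 stood far above the rest (limma log2 fold change -0.49 ± 0.18 SE, unadjusted p = 0.0254, adjusted p = 0.708). That library alone held 47.4 FPKM of Hnrnpk-214, a protein-coding model without an annotated 3′ end that was at most 0.269 FPKM elsewhere. The call was lost without Ctrl replicate 1 (log2 fold change -0.29, unadjusted p = 0.0532 with limma), without Gsk3sKO replicate 2 (-0.44, unadjusted p = 0.08) and after median-ratio rescaling (-0.42, unadjusted p = 0.0709), with the same sign each time. It was lost too without moderation of the variance (limma, unadjusted p = 0.0739) and with moderation without a trend (limma, unadjusted p = 0.0561). The number of called gene totals of members was 0 without Gsk3sKO replicate 2, beside 4.96% of all gene totals in that setting. It was 2 (3.77%) without Ctrl replicate 1, Ctrl replicate 3 or Gsk3sKO replicate 3, beside 5.27, 7.12 and 5.11% of all.

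Hnrnpa2b1, whose protein sorts RNA granules into dendrites, had the highest level of all members, with gene totals of 309, 219 and 235 FPKM in Ctrl and 239, 236 and 314 FPKM in Gsk3sKO. Ctrl replicate 1 and Gsk3sKO replicate 3 were high and the other four alike, and the difference was 0.05 (95% interval -0.36 to 0.47) on the log2 scale. Hnrnpa0, a relative of Hnrnpa1, was at 35.1, 31.6 and 28.1 FPKM in Ctrl and 24.9, 25.6 and 25.5 FPKM in Gsk3sKO, without overlap of the groups, but did not pass the test (limma log2 fold change -0.30 ± 0.14 SE, unadjusted p = 0.0636, adjusted p = 0.773). The remaining 17 Hnrnp genes overlapped between the groups. Their most negative and most positive log2 fold changes were -0.14 (Hnrnpll, which promotes exon skipping in lymphocytes) and 0.65 (Hnrnpf, which binds runs of guanine), and in the family 10 were above and 10 below 0. For Hnrnpf the values were 27.6, 7.59 and 16.3 FPKM in Ctrl and 18.2, 31 and 25.6 FPKM in Gsk3sKO, so that 1 Ctrl library lay above 2 of the Gsk3sKO libraries (limma, unadjusted p = 0.146). The summed level of the family was 1803, 1443 and 1467 FPKM in Ctrl and 1483, 1447 and 1816 FPKM in Gsk3sKO, and 1 library of each group stood above the others. Hnrnpa1 and Hnrnpa3 have processed pseudogenes in the mouse genome, and how reads shared with such copies were treated is not given in the sources used here, so their levels are less certain.

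Among the SR genes, 8 of 11 log2 fold changes were negative and 0 were called. Srsf5, the most abundant of them, had gene totals of 118, 92.4 and 86.3 FPKM in Ctrl and 72.9, 80.4 and 118 FPKM in Gsk3sKO. Srsf4, next in level, was at 46.7, 39.4 and 42.9 FPKM in Ctrl and 41, 37.7 and 33.2 FPKM in Gsk3sKO. In both genes the groups overlapped, with log2 fold changes of -0.15 (95% interval -0.62 to 0.32) and -0.20 (95% interval -0.53 to 0.12). Srsf6 was at 13.8, 15.7 and 13.8 FPKM in Ctrl and 12.2, 12.1 and 12.9 FPKM in Gsk3sKO, with all 3 Gsk3sKO libraries lower, but the gap was small (limma log2 fold change -0.20 ± 0.16 SE, unadjusted p = 0.224, adjusted p = 0.857). The other 8 ranged from -0.36 (Srsf1, limma, unadjusted p = 0.195) to 0.39 (Srsf10, limma, unadjusted p = 0.2). Summed over the family, the level was 333, 298 and 292 FPKM in Ctrl and 259.8, 269 and 321 FPKM in Gsk3sKO, and Gsk3sKO replicate 3 lay within the Ctrl range (2-sided exact permutation test, p = 0.4). Tra2b, an SR-like activator of exons rich in GAA repeats, was at 15.7, 26.1 and 23.9 FPKM in Ctrl and 18, 20.7 and 29.5 FPKM in Gsk3sKO. Its relative Tra2a was at 11.4, 25 and 11 FPKM in Ctrl and 20.5, 9.74 and 21 FPKM in Gsk3sKO. Both overlapped between the groups.

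The neuronal families showed no called gene total. Rbfox proteins bind the letters UGCAUG beside alternative exons, and Rbfox3 is the antigen known as NeuN. Gene totals of Rbfox1 were 93.4, 108 and 125 FPKM in Ctrl and 121, 107 and 107 FPKM in Gsk3sKO. Those of Rbfox3 were 100.1, 91.1 and 102 FPKM in Ctrl and 101, 90.7 and 92.8 FPKM in Gsk3sKO. Rbfox2 was at 24.7, 43.7 and 45.9 FPKM in Ctrl and 48.1, 40.2 and 41.3 FPKM in Gsk3sKO. Rbfox1 and Rbfox3 were at about the same level in each library, while Rbfox2 was lower, with Ctrl replicate 1 the lowest of its 6 values. The interval of the difference was narrow for Rbfox3, -0.04 (95% interval -0.32 to 0.24), and Rbfox1, 0.05 (95% interval -0.29 to 0.38), and wider for Rbfox2, 0.22 (95% interval -0.31 to 0.76). Nova proteins bind clusters of UCAU and were first found as targets of autoimmunity in neurological disease. Nova1 had gene totals of 2.65, 5.33 and 5.71 FPKM in Ctrl and 4.59, 6.49 and 6.56 FPKM in Gsk3sKO. Nova2 had gene totals of 14.7, 15 and 19 FPKM in Ctrl and 15, 15.3 and 12.6 FPKM in Gsk3sKO. Nova2 was above Nova1 in each of the 6 libraries, and neither passed the test (limma, unadjusted p = 0.273 and 0.361).

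Ptbp1 holds back neuronal exons in other cells, and Ptbp2 takes its place in developing neurons. Ptbp2 was at 22.5, 33.7 and 47.1 FPKM in Ctrl and 67, 25.8 and 36.7 FPKM in Gsk3sKO. Ptbp1 was far lower, at 0.656, 5.1 and 5.47 FPKM in Ctrl and 2.76, 1.62 and 7.5 FPKM in Gsk3sKO. Transcripts annotated with nonsense-mediated decay, a retained intron or no reading frame held 0, 61 and 76% of the Ptbp1 total in Ctrl. In Gsk3sKO they held 61.1, 0 and 57%. Ptbp3 was at 0.132, 4.12 and 3.48 FPKM in Ctrl and 1.96, 1.35 and 2.3 FPKM in Gsk3sKO. Ptbp2 exceeded the sum of its 2 relatives in each library. All 3 genes varied widely over the 6 libraries, Ptbp1 by 11.4-fold and Ptbp3 by 31.4-fold between the highest and the lowest library. The 95% intervals of the log2 fold change were -1.27 to 1.51 for Ptbp1, -0.56 to 1.10 for Ptbp2 and -1.33 to 1.21 for Ptbp3.

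Elavl proteins, also called Hu proteins, bind uridine-rich RNA and act on splicing in the nucleus and on stability in the cytoplasm, Elavl1 in all cells and Elavl2, Elavl3 and Elavl4 in neurons. Elavl3 led the family in each library with 59, 62.1 and 74.3 FPKM in Ctrl and 64.4, 69.9 and 68.6 FPKM in Gsk3sKO. The other 3 lay together below it, in an order that changed from library to library. Elavl1 was at 16.5, 16.7 and 26.2 FPKM in Ctrl and 22.6, 16.7 and 18.1 FPKM in Gsk3sKO. Elavl2 was at 19.4, 19.6 and 22.3 FPKM in Ctrl and 19.6, 17.9 and 21.3 FPKM in Gsk3sKO. Elavl4 was at 18.5, 23.3 and 26.6 FPKM in Ctrl and 22.9, 30.9 and 19.9 FPKM in Gsk3sKO. Elavl2 was one of the steadiest genes, with a difference of -0.06 (95% interval -0.40 to 0.29) on the log2 scale. The Celf proteins bind GU-rich RNA, and Celf2 and Celf4 were the most abundant of the 6. Celf2 was at 125, 110.1 and 135 FPKM in Ctrl and 124, 107 and 129.98 FPKM in Gsk3sKO. Celf4 was at 111, 101 and 123 FPKM in Ctrl and 118, 106 and 131 FPKM in Gsk3sKO. In both, replicate 3 was the highest and replicate 2 the lowest library of each group. Celf5 followed with 50.3, 48.4 and 55.6 FPKM in Ctrl and 56.8, 46.5 and 49.2 FPKM in Gsk3sKO. Celf1 had 32.8, 28 and 44.5 FPKM in Ctrl and 31.3, 32.5 and 33.4 FPKM in Gsk3sKO. Celf3 had 34.2, 25.1 and 35.2 FPKM in Ctrl and 26.7, 28.3 and 25.4 FPKM in Gsk3sKO. The last member, Celf6, had the lowest level and the widest spread. Celf6 was at 7.53, 14.6 and 10.1 FPKM in Ctrl and 11.2, 13.3 and 3.87 FPKM in Gsk3sKO. In all 6 genes the groups overlapped, and the largest difference, that of Celf6, was -0.26 (95% interval -1.21 to 0.68). Mbnl proteins bind GC steps flanked by pyrimidines and are held by expanded CUG repeats in myotonic dystrophy. Mbnl2 was at 49.1, 64.9 and 74.2 FPKM in Ctrl and 67.3, 60.02 and 68.5 FPKM in Gsk3sKO. Mbnl1 was at 16.2, 29.9 and 27.8 FPKM in Ctrl and 17.9, 28.7 and 29.2 FPKM in Gsk3sKO. Mbnl3, which was not tested, was at most 0.0944 FPKM. The difference was 0.07 (95% interval -0.32 to 0.47) for Mbnl2 and 0.05 (95% interval -0.58 to 0.67) for Mbnl1.

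**Figure D2:**
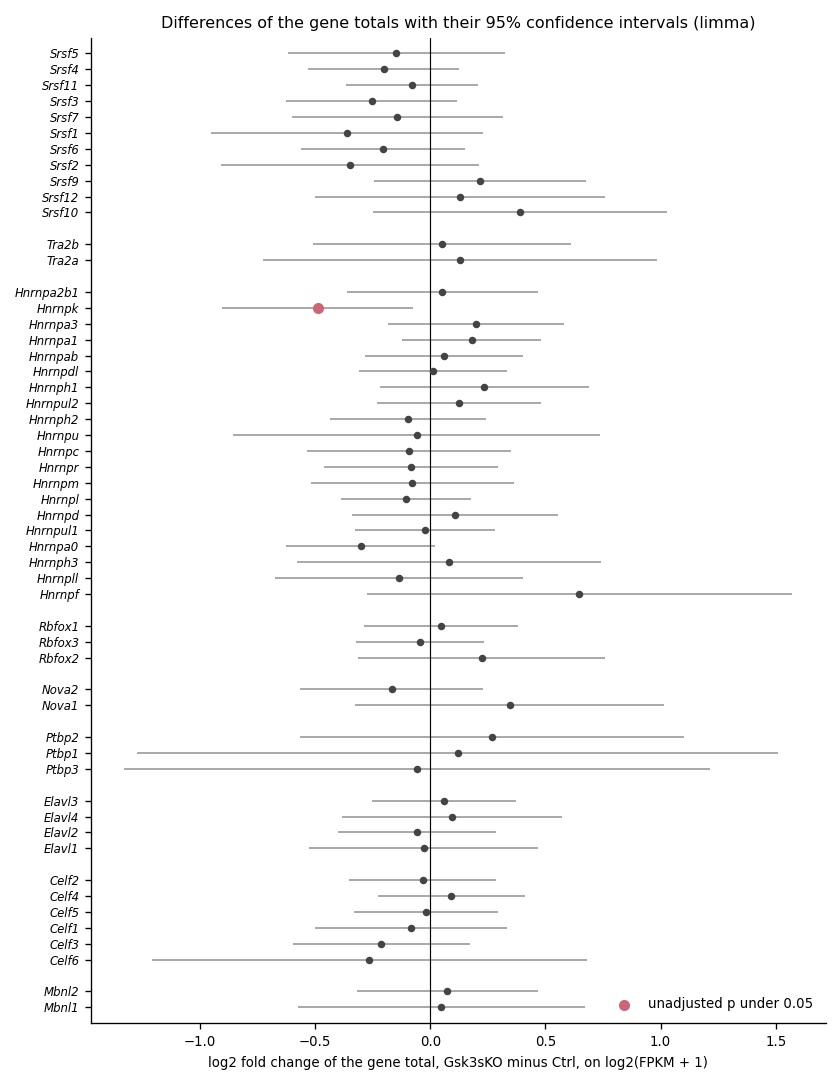
Log2 fold change of the gene total, Gsk3sKO minus Ctrl, on log2(FPKM + 1), with its 95% interval from limma (n = 3 libraries per group) for the 53 tested splicing regulators, by family. Hnrnpk (red) is the one gene whose interval leaves out 0, and the intervals of Ptbp1, Ptbp3, Celf6 and Hnrnpf are the widest.

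Transcripts were tested one by one as well. Of the 444 member transcripts, 412 were above 0 in at least 1 library, 32 were at 0 in all, and 214 passed the filter and were tested. With limma, 9 of the 214 (4.21%) were called, 5 higher and 4 lower in Gsk3sKO, beside 5.56% of all 21584 tested transcripts, 1.81% higher and 3.75% lower, so the share of called members was close to the background. None had an adjusted p under 0.05 and neither had any other transcript of the table, the lowest among members being 0.427, and in 12 of 214 the groups did not overlap, beside 11.2% of all. The number called was 14 without Gsk3sKO replicate 1, or 6.54% of the members beside 8.03% of all transcripts in the same setting. The 9 belonged to 7 genes, and only 2 of them to a gene whose total was called. StringTie divides reads between overlapping models by estimation, so a higher transcript of a gene can come with a lower one.

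Elavl2-208 (ENSMUST00000107120) had the lowest p of the member transcripts. Its level was 4.91, 2.39 and 0.904 FPKM in Ctrl and 14, 15.4 and 16.2 FPKM in Gsk3sKO, and every Gsk3sKO library lay far above every Ctrl library (limma log2 fold change 2.26 ± 0.43 SE, unadjusted p = 0.00162, adjusted p = 0.427). Its share of the Elavl2 gene total was 25.3, 12.2 and 4.04% in Ctrl and 71.4, 85.8 and 76% in Gsk3sKO, although the gene total differed by less than its error. Elavl2-206 was at 0, 9.53 and 10.5 FPKM in Ctrl and 1.16, 0 and 0.0771 FPKM in Gsk3sKO. Elavl2-201 was at 8.72, 0.209 and 0.197 FPKM in Ctrl and 2.53, 1.05 and 0 FPKM in Gsk3sKO. The leading transcript was Elavl2-201 in Ctrl replicate 1 and Elavl2-206 in Ctrl replicates 2 and 3, against Elavl2-208 in all Gsk3sKO libraries. Elavl2-208 and Elavl2-206 have the same exons from the start codon on, apart from an acceptor that differs by 3 bases in the last exon, and they differ in the noncoding first exon and in the length of the 3′ end. Both begin translation in an exon that Elavl2-201 and Elavl2-209 lack, and those have a start codon farther downstream. The coding part of that first coding exon (chr4:91311573-91311644, GRCm38, reverse strand, from the GENCODE M21 transcripts) is shown because it sets the upstream start apart, with its start codon in capitals.

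Elavl2 first coding exon: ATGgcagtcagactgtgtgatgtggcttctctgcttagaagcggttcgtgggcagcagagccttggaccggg

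Summed over the 4 transcripts that start there, Elavl2 was at 6.76, 14.8 and 12.5 FPKM in Ctrl and 15.6, 15.6 and 17.7 FPKM in Gsk3sKO, and over the 7 that start downstream at 12, 3.45 and 9.59 FPKM in Ctrl and 3.39, 2.08 and 2.83 FPKM in Gsk3sKO. The first sum was higher and the second lower in each Gsk3sKO library than in each Ctrl library, with Ctrl replicate 2 close to Gsk3sKO in both. This grouping was chosen after the values were seen and was not tested. The call of Elavl2-208 held in all 7 other settings and without each library in turn, with log2 fold changes of 1.85 to 2.67 when 1 library was left out.

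Celf1-208 (ENSMUST00000111455, chromosome 2) followed the same course. Its FPKM were 5.07, 11.5 and 14.4 in Ctrl and 24.3, 25.6 and 26.9 in Gsk3sKO, without overlap (limma log2 fold change 1.34 ± 0.36 SE, unadjusted p = 0.00891, adjusted p = 0.752). It made up 15.5, 41.2 and 32.3% in Ctrl and 77.6, 78.8 and 80.6% in Gsk3sKO of the Celf1 gene total. In Ctrl other transcripts reached a similar or higher level, Celf1-202 at 14.9 FPKM in replicate 1, Celf1-214 at 10.8 FPKM in replicate 2, just under Celf1-208 itself, and Celf1-201 at 15.1 FPKM in replicate 3. Celf1-208 is annotated to begin at its start codon, upstream of the one that Celf1-202 and Celf1-214 use. The 3 transcripts with the upstream start summed to 9.33, 12.7 and 30.4 FPKM in Ctrl and 27, 26.2 and 27.9 FPKM in Gsk3sKO, and the 6 with the downstream start to 21.5, 13.8 and 13.8 FPKM in Ctrl and 3.57, 3.5 and 1.85 FPKM in Gsk3sKO. The upstream sum overlapped between the groups because Ctrl replicate 3 was as high as the Gsk3sKO libraries, whereas the downstream sum was lower in each Gsk3sKO library, again in a grouping chosen after the values were seen. Celf1-208 kept its call in all 7 other settings and without each library in turn, with log2 fold changes of 0.94 to 1.61.

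**Figure D3:**
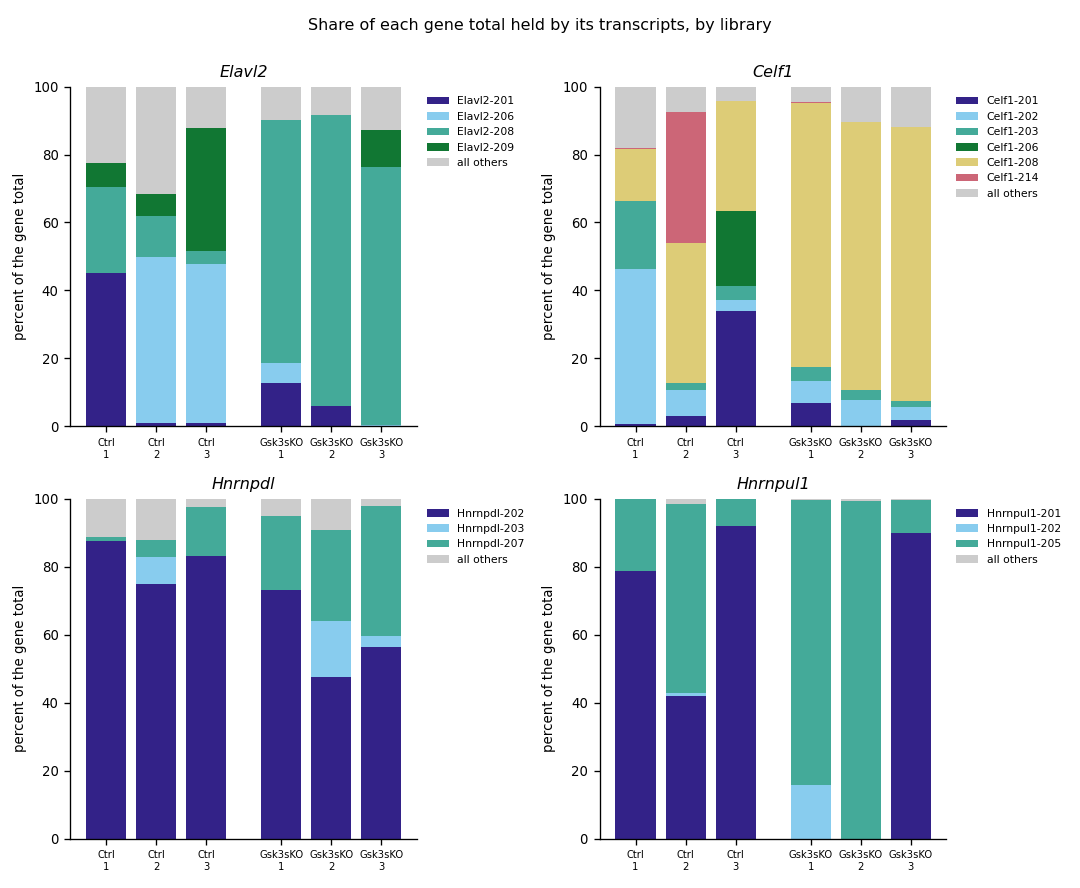
Share of the gene total held by each transcript (percent, stacked bars, 1 bar per library) for Elavl2, Celf1, Hnrnpdl and Hnrnpul1, with transcripts that stayed under 15% in all libraries drawn together in grey. Elavl2-208 holds between 71.4% and 85.8% of the total in Gsk3sKO and at most 25.3% in Ctrl, and the Hnrnpul1 total lies in Hnrnpul1-205 in Gsk3sKO replicates 1 and 2 but in Hnrnpul1-201 in replicate 3.

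Hnrnpdl, a relative of Hnrnpd that binds AU-rich RNA, had called transcripts in both directions around a steady gene total. Hnrnpdl-207 was at 1.12, 4.2 and 12.5 FPKM in Ctrl and 17.3, 24 and 39.4 FPKM in Gsk3sKO, higher in each Gsk3sKO library (limma log2 fold change 2.32 ± 0.69 SE, unadjusted p = 0.0139, adjusted p = 0.796). The main transcript Hnrnpdl-202 was at 85.3, 63.1 and 72.3 FPKM in Ctrl and 58.2, 42.5 and 58 FPKM in Gsk3sKO, lower in each Gsk3sKO library (limma log2 fold change -0.47 ± 0.19 SE, unadjusted p = 0.0438, adjusted p = 0.842). The Hnrnpdl gene total was 97.3, 84.3 and 87 FPKM in Ctrl and 79.6, 89.4 and 103 FPKM in Gsk3sKO. Hnrnpdl-202 ends with a separate noncoding exon, while Hnrnpdl-207 has no annotated start and keeps the intron before that exon, so that the models share the coding exons between. The call of Hnrnpdl-207 was lost without Gsk3sKO replicate 3 (log2 fold change 2.01, unadjusted p = 0.0564 with limma), and that of Hnrnpdl-202 without Ctrl replicate 1 (-0.36, unadjusted p = 0.117), Ctrl replicate 3 (-0.48, unadjusted p = 0.0855), Gsk3sKO replicate 1 (-0.55, unadjusted p = 0.0504) or Gsk3sKO replicate 2 (-0.32, unadjusted p = 0.115), and also after median-ratio rescaling (-0.42, unadjusted p = 0.088).

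For Hnrnpk the lower transcripts included the main one. Hnrnpk-205, protein coding, was at 95, 70.1 and 69.9 FPKM in Ctrl and 61.5, 49.9 and 57.8 FPKM in Gsk3sKO (limma log2 fold change -0.46 ± 0.17 SE, unadjusted p = 0.0363, adjusted p = 0.842). Hnrnpk-204, a model with a retained intron, was at 8.86, 13.9 and 9.3 FPKM in Ctrl and 6.12, 3.4 and 5.68 FPKM in Gsk3sKO (limma log2 fold change -0.95 ± 0.30 SE, unadjusted p = 0.0183, adjusted p = 0.818). The second main transcript, Hnrnpk-202, was at 44.1, 39 and 39.5 FPKM in Ctrl and 27.6, 40.02 and 35.8 FPKM in Gsk3sKO, with overlap. Hnrnpk-205 made up 47.4% to 54.9% of the gene total, with no gap between the groups. The call of Hnrnpk-205 was lost without Ctrl replicate 1 (log2 fold change -0.31, unadjusted p = 0.0712 with limma), Gsk3sKO replicate 2 (-0.37, unadjusted p = 0.103) or Gsk3sKO replicate 3 (-0.48, unadjusted p = 0.062) and after median-ratio rescaling (-0.40, unadjusted p = 0.086), and that of Hnrnpk-204 without Ctrl replicate 2 (-0.76, unadjusted p = 0.0724).

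The last 3 called transcripts belonged to Srsf9, Hnrnpa3 and Hnrnpf. Srsf9-202, annotated as processed and without a reading frame, was at 3.94, 2.59 and 3.99 FPKM in Ctrl and 6.32, 13.4 and 7.14 FPKM in Gsk3sKO (limma log2 fold change 1.09 ± 0.35 SE, unadjusted p = 0.0187, adjusted p = 0.818), without overlap. The coding Srsf9-201 was at 8.97, 5.52 and 5.59 FPKM in Ctrl and 3.37, 3.38 and 7.54 FPKM in Gsk3sKO and did not pass the test (limma, unadjusted p = 0.258). Hnrnpa3-201 was at 19.2, 11.9 and 19.8 FPKM in Ctrl and 24.8, 24.5 and 29.1 FPKM in Gsk3sKO (limma log2 fold change 0.62 ± 0.23 SE, unadjusted p = 0.0359, adjusted p = 0.842), between 10.1% and 16.9% of its gene total. Hnrnpf-210, a single-exon model, was at 8.31, 1.35 and 1.27 FPKM in Ctrl and 0.0702, 0.117 and 0.0334 FPKM in Gsk3sKO (limma log2 fold change -1.78 ± 0.65 SE, unadjusted p = 0.0327, adjusted p = 0.842), and all 10 Hnrnpf transcripts share 1 start codon. All 3 lost the call when some library was left out. For Srsf9-202 this was Ctrl replicate 2 (log2 fold change 0.94, unadjusted p = 0.0649 with limma) or Gsk3sKO replicate 2 (0.79, unadjusted p = 0.0605). For Hnrnpa3-201 it was Ctrl replicate 2 (log2 fold change 0.40, unadjusted p = 0.0656 with limma) or Gsk3sKO replicate 1, 2 or 3 (0.66, unadjusted p = 0.065, 0.66, unadjusted p = 0.0614 and 0.54, unadjusted p = 0.0951), and for Hnrnpf-210 Gsk3sKO replicate 1, 2 or 3 (-1.77, unadjusted p = 0.0686, -1.81, unadjusted p = 0.0644 and -1.75, unadjusted p = 0.0705). Without Ctrl replicate 1, which held the highest value, the log2 fold change of Hnrnpf-210 was -1.11, unadjusted p = 0.0136 with limma.

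**Figure D4:**
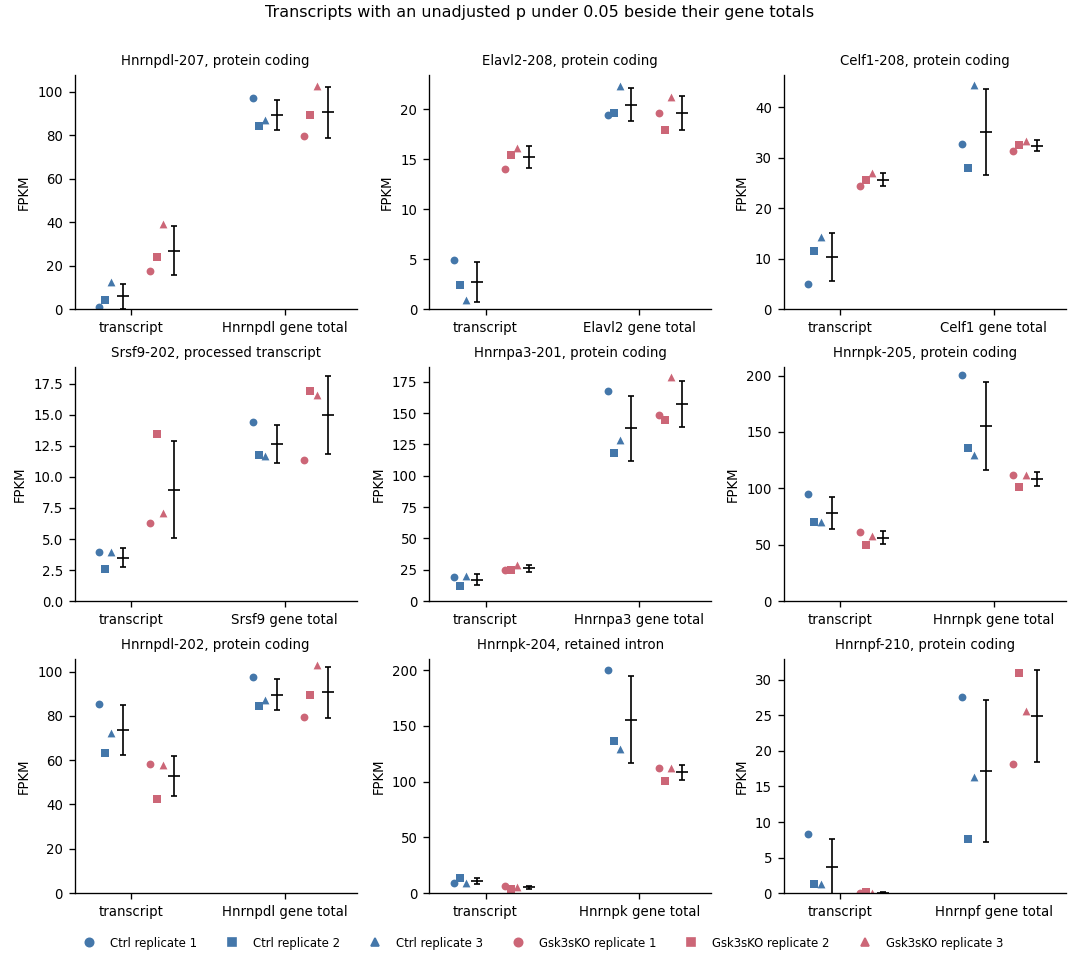
FPKM of the 9 called transcripts (left in each panel) and of their gene totals (right) in each library, with Ctrl in blue, Gsk3sKO in red and the mean ± SD in black (n = 3 per group; bars that would pass below 0 are drawn to the axis). For Elavl2, Celf1 and Hnrnpdl the transcript differs between the groups while the gene total overlaps, and for Hnrnpk both are lower in Gsk3sKO.

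Switches between transcripts occurred in these genes also where no group difference was seen. Of the 47 genes with more than 1 transcript above 0, 20 had the same leading transcript in all 6 libraries, and in 14 the leading transcript by group mean differed between Ctrl and Gsk3sKO. The same counts were not made over all genes, so they do not set the members apart. Hnrnpul1, a protein with a role in RNA export and DNA repair, shows how far this went within a group. Hnrnpul1-201 was at 29.5, 15.2 and 34 FPKM in Ctrl and 0, 0 and 30.00 FPKM in Gsk3sKO, and Hnrnpul1-205, also protein coding, at 7.91, 20.1 and 2.89 FPKM in Ctrl and 33.5, 35.5 and 3.24 FPKM in Gsk3sKO. Gsk3sKO replicates 1 and 2 held nearly all of the gene in Hnrnpul1-205 and replicate 3 held nearly all in Hnrnpul1-201, while the Hnrnpul1 gene total was among the steadiest (37.4, 36.2 and 36.9 FPKM in Ctrl and 39.9, 35.8 and 33.4 FPKM in Gsk3sKO). Neither transcript passed the test (limma, unadjusted p = 0.0638 and 0.375). Tra2a-201, protein coding, was likewise at 0, 22.4 and 0 FPKM in Ctrl and 19.6, 0 and 18.7 FPKM in Gsk3sKO, present in 1 Ctrl and 2 Gsk3sKO libraries and listed at 0 in the others.

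The share of a gene total in unproductive transcripts, those annotated with nonsense-mediated decay, a retained intron, or as processed without a reading frame, was tested next, since many genes of these families are known to limit their own protein in this way. It could be tested in 37 members, and with limma 1 was called, Srsf10, higher in Gsk3sKO, beside 3.73% of all 6865 genes tested and 1.5% called higher and 2.23% lower, while 0.0437% of all and no member had an adjusted p under 0.05. Srsf10 encodes an SR protein that turns into a splicing repressor when it is dephosphorylated. Its unproductive share was 10.2, 22.7 and 28.6% in Ctrl and 49.1, 46.5 and 46.6% in Gsk3sKO, with the 3 Gsk3sKO libraries close together and above all Ctrl libraries. The difference was 26.9 percentage points (SE 5.13, limma, unadjusted p = 0.00391, adjusted p = 0.606). The gene was low, with gene totals of 5.9, 11.2 and 11.3 FPKM in Ctrl and 10.2, 11.2 and 16 FPKM in Gsk3sKO, and the share was made up of processed models, chiefly Srsf10-209 and Srsf10-207. Srsf10-209 was at 0.311, 1.71 and 0.0646 FPKM in Ctrl and 2.4, 1.55 and 4.28 FPKM in Gsk3sKO. Srsf10-207 was at 0, 0 and 2.93 FPKM in Ctrl and 1.23, 2.55 and 0.0763 FPKM in Gsk3sKO. Each of them overlapped between the groups, so the called share rests on the sum over the processed models. Of the coding forms, Srsf10-204 was at 1.5, 3.91 and 5.09 FPKM in Ctrl and 2.57, 0.461 and 0.424 FPKM in Gsk3sKO and Srsf10-205 at 3.8, 3.0 and 2.98 FPKM in Ctrl and 1.48, 2.36 and 6.11 FPKM in Gsk3sKO. With only nonsense-mediated decay and retained introns counted as unproductive, no member was called. Without Ctrl replicate 1 the count of called members was 2 (5.41%, beside 5.26% of all genes in the same setting), and without Gsk3sKO replicate 1 or replicate 3 it was 4 (10.8%, beside 5.97% and 4.41% of all).

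In 2 further genes the unproductive shares did not overlap between the groups, against 9.76% of all genes for this measure. Srsf9 was at 37.8, 52.5 and 52.3% in Ctrl and 70.4, 80.04 and 54.6% in Gsk3sKO, with a difference of 20.8 percentage points (SE 8.19, limma, unadjusted p = 0.0543, adjusted p = 0.92). Its unproductive models are Srsf9-202, called above, and Srsf9-203, both processed without a reading frame, so this share is no separate result. Hnrnpd was at 9.78, 12.2 and 9.92% in Ctrl and 8.0, 7.96 and 3.35% in Gsk3sKO, with a difference of -4.18 percentage points (SE 1.78, limma, unadjusted p = 0.0686, adjusted p = 0.92). Neither passed the test. Hnrnpll, with 61.3, 85.4 and 46.3% in Ctrl and 48.1, 30.2 and 8.94% in Gsk3sKO, and Celf6, with 30.6, 10.9 and 44.3% in Ctrl and 61.2, 81.4 and 39.1% in Gsk3sKO, had larger differences of -35.3 and 32 percentage points but overlapped. For the classical SR genes the intervals were wide: 6.53 percentage points (95% interval -13.4 to 26.5) for Srsf2, 7.46 percentage points (95% interval -15.2 to 30.1) for Srsf3 and -18.4 percentage points (95% interval -59.2 to 22.4) for Srsf6. Single libraries held much of this, such as Srsf6 at 59.5% in Ctrl replicate 2 and Tra2b at 59.3% in the same library, where Tra2b-206, the form with the premature stop, was at 13.1 FPKM and at 0 in the others.

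These exons with premature stop codons are part of the known self-control of the families, and the stretch from the exon's start to its stop codon, in capitals, is shown for 3 of them, in Tra2b, Srsf4 and Hnrnpll. The Tra2b exon lies at chr16:22258986-22259261 (reverse strand), the Srsf4 exon at chr4:131884276-131884482 (forward strand) and the Hnrnpll exon at chr17:80044940-80045022 (reverse strand), all in GRCm38, and the sequences are those of the GENCODE M21 transcripts.

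Tra2b exon to its stop codon: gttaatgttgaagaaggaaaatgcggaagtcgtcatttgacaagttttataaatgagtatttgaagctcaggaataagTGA
Srsf4 exon to its stop codon: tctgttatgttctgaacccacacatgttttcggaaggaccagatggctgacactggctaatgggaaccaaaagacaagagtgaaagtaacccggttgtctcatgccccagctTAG
Hnrnpll exon to its stop codon: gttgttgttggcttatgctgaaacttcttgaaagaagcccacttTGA

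The transcript with the Srsf4 exon, Srsf4-203, was at most 0.719 FPKM, while Hnrnpll-203, which holds the Hnrnpll exon, was at 13.9, 14.6 and 0.317 FPKM in Ctrl and 2.7, 0 and 0 FPKM in Gsk3sKO. The latter was high in 2 Ctrl libraries and low in the other four.

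Inclusion of cassette exons was estimated, after the values had been seen, as the FPKM of the transcripts with an exon divided by that of the transcripts with or without it. In 51 exons of the members this gave a mean between 5% and 95% with at least 1 FPKM, and with limma 2 were called, both higher in Gsk3sKO, beside 3.82% of 3874 exons in the table and 2.45% called higher and 1.37% lower. None had an adjusted p under 0.05, beside 0.129% of all, and in 5 the groups did not overlap, beside 9.01% of all. Without Ctrl replicate 3 the count of called exons was 4 (7.84%, beside 4.78% of all exons in the same setting). Exons of the coding sequence that describe these proteins are shown here in capitals with up to 12 flanking coding bases in lower case, 5′ to 3′, from the GENCODE M21 transcripts of GRCm38.

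Elavl2 exon of 39 bases, chr4:91254141-91254179, reverse strand: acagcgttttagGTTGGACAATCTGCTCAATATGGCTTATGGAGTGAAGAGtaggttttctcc
Elavl4 exon of 39 bases, chr4:110209740-110209778, reverse strand: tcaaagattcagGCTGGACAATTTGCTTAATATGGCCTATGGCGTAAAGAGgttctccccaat
Mbnl1 exon of 36 bases, chr3:60621423-60621458, forward strand: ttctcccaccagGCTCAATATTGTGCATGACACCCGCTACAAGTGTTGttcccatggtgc
Mbnl2 exon of 36 bases, chr14:120403336-120403371, forward strand: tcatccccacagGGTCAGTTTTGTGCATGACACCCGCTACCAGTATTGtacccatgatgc
Mbnl1 exon of 54 bases, chr3:60614683-60614736, forward strand: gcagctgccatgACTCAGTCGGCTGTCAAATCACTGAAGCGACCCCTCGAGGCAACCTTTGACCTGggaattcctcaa
Hnrnpd exon of 147 bases, chr5:99963731-99963877, reverse strand: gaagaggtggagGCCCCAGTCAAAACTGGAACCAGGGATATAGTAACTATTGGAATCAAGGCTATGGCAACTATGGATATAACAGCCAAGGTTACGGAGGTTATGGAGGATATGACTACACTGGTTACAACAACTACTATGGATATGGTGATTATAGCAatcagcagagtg
Hnrnpd exon of 57 bases, chr5:99976534-99976590, reverse strand: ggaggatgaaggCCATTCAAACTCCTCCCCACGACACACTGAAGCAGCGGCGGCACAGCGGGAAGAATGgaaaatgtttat
Hnrnpa2b1 exon of 36 bases, chr6:51467391-51467426, reverse strand: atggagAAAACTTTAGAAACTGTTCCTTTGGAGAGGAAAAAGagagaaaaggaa
Hnrnpk exon of 72 bases, chr13:58396188-58396259, reverse strand: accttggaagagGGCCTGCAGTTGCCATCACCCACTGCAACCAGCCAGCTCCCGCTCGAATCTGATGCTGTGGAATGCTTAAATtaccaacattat
Srsf1 exon of 187 bases, chr11:88049412-88049598, forward strand: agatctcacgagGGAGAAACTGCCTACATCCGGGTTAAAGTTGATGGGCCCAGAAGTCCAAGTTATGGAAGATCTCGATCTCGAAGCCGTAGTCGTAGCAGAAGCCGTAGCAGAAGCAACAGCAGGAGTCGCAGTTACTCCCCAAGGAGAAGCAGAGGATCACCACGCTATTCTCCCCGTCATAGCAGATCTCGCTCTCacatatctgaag

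The first pair are the exons in the linker between the second and the third RNA recognition motif of Elavl2 and Elavl4, and 33 of their 39 bases (84.6%) are the same. Inclusion in Elavl2 was 89, 87.8 and 93.8% in Ctrl and 94.3, 94.2 and 92.4% in Gsk3sKO, and in Elavl4 98.6, 85.6 and 99.6% in Ctrl and 83, 100 and 66.6% in Gsk3sKO. Both exons were included in most of the RNA, with a difference between the groups of 3.47 percentage points (95% interval -15.1 to 22.1) in Elavl2 and -11.4 percentage points (95% interval -38.8 to 16) in Elavl4. The 36-base exons of Mbnl1 and Mbnl2 share 31 of 36 bases (86.1%), but their inclusion was 84.1, 27.4 and 73.5% in Ctrl and 58.9, 59.2 and 85.8% in Gsk3sKO in Mbnl1 and 34.7, 58.1 and 52.5% in Ctrl and 57.6, 59.6 and 63.2% in Gsk3sKO in Mbnl2. Mbnl2 was more even than Mbnl1 apart from Ctrl replicate 1, and the differences were 6.32 percentage points (95% interval -35.4 to 48) and 11.7 percentage points (95% interval -11.3 to 34.6). The 54-base exon of Mbnl1, which directs the protein to the nucleus, was included at 46.4, 26.3 and 53.3% in Ctrl and 45.9, 49.5 and 19.5% in Gsk3sKO, with a difference of -3.67 percentage points (95% interval -33.7 to 26.4).

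In Hnrnpd, known as AUF1, the exons of 57 and 147 bases combine to make the isoforms of the protein. The 147-base exon was included at 79.4, 82.2 and 77.4% in Ctrl and 68.4, 72.7 and 66% in Gsk3sKO, lower in each Gsk3sKO library, but the difference of -10.6 percentage points (SE 7.79, limma, unadjusted p = 0.219, adjusted p = 0.834) did not pass the test. The 57-base exon was at 86.7, 88.4 and 81.8% in Ctrl and 73.2, 82.3 and 80.2% in Gsk3sKO, with overlap. The 36-base exon of Hnrnpa2b1, which sets the B1 form apart from the shorter A2 form, was included at 19.5, 7.68 and 14.4% in Ctrl and 12.8, 10.7 and 12.3% in Gsk3sKO, so forms without this exon made up most of the RNA compared in each library. Hnrnpk's 72-base exon, which is present in Hnrnpk-202 and absent from Hnrnpk-205, was at 23.9, 38.7 and 38.5% in Ctrl and 37.9, 45.6 and 39.1% in Gsk3sKO. Ctrl replicate 1 was the lowest, and it alone held much Hnrnpk-214, which this ratio counts among the transcripts without the exon. The 141-base exon of Hnrnpab was at 83.2, 78.8 and 81.4% in Ctrl and 85.3, 77.2 and 58.5% in Gsk3sKO, with Gsk3sKO replicate 3 apart from the other five.

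Of the called exons, the one in Srsf1 (the founding SR protein ASF/SF2) codes for part of the arginine- and serine-rich domain. Here inclusion compares Srsf1-202, which holds the exon, with Srsf1-204, a nonsense-mediated decay model that skips it, and it was 63.2, 58.6 and 67.6% in Ctrl and 83.5, 80.7 and 85.1% in Gsk3sKO. The groups did not overlap, with a difference of 19.98 percentage points (SE 7.9, limma, unadjusted p = 0.0426, adjusted p = 0.834), on a mean of 7.05 FPKM for both transcripts together. Another coding form, Srsf1-205, in which the exon runs on to the 3′ end, does not enter this ratio and was at 4.65, 6.59 and 2.53 FPKM in Ctrl and 2.63, 3.85 and 2.19 FPKM in Gsk3sKO. The call held without each library in turn but not in every other setting, being lost on an arcsine scale (limma, unadjusted p = 0.112). Over all Srsf1 transcripts, the unproductive share was 27.6, 23.8 and 46.5% in Ctrl and 38.4, 31.4 and 25.5% in Gsk3sKO. Its groups overlapped, with a difference of -0.87 percentage points (limma, unadjusted p = 0.911). The second, a noncoding exon of 223 bases in Mbnl1 (chr3:60528756-60528978, forward strand), was included at 5.06, 64.1 and 50.3% in Ctrl and 100, 100 and 100% in Gsk3sKO, with a difference of 60.2 percentage points (SE 16.1, limma, unadjusted p = 0.00861, adjusted p = 0.833), on a mean of 1.24 FPKM, the edge of the filter. A longer form of this exon, with the same start and 1049 bases, had a mean of 4.94 FPKM. It was included at 33.7, 88.1 and 73.2% in Ctrl and 95.1, 56.8 and 100% in Gsk3sKO, with overlap (limma, unadjusted p = 0.341).

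**Figure D5:**
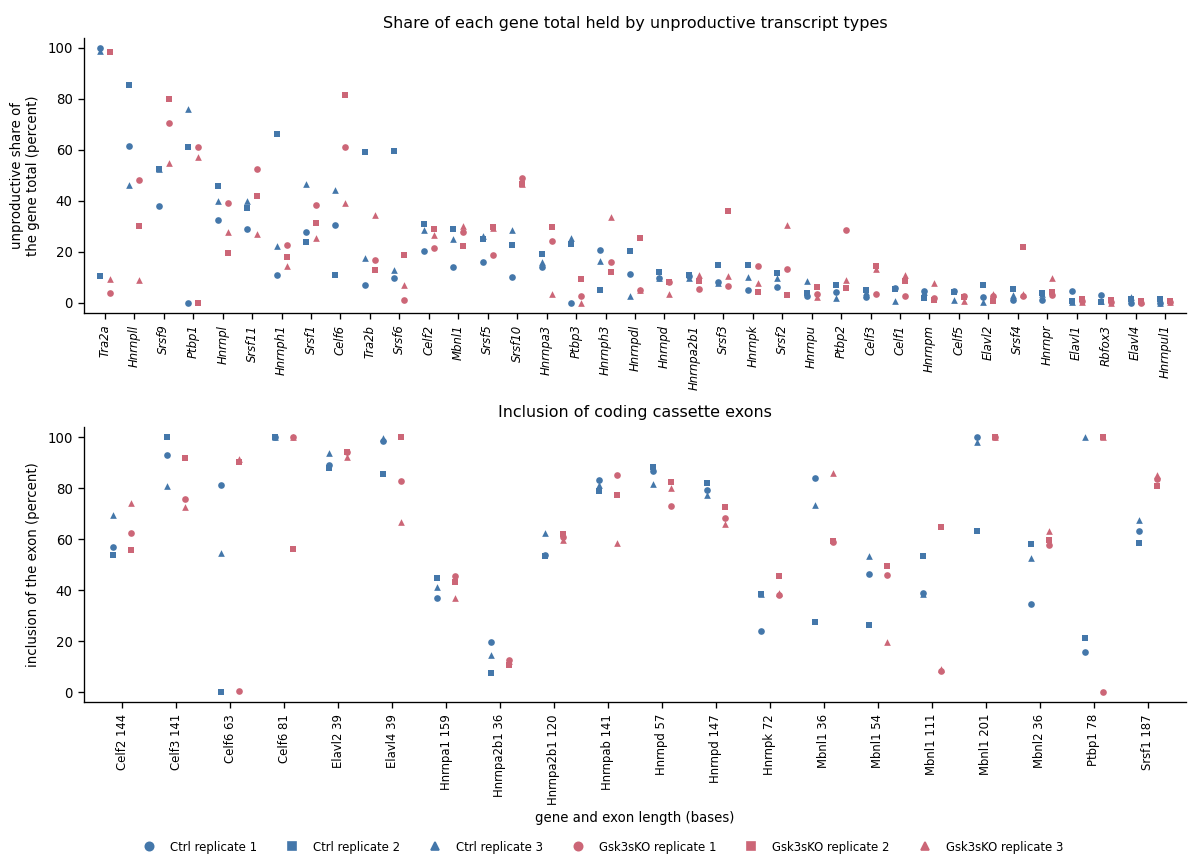
Top, percent of the gene total in unproductive transcripts for the 37 tested members, in falling order of the Ctrl mean; bottom, inclusion in percent of the 19 coding cassette exons whose length is a multiple of 3 and of the called Srsf1 exon, with the exon length after the gene name (1 point per library, blue Ctrl, red Gsk3sKO). In Srsf10 the Gsk3sKO points lie between 46.5% and 49.1%, above all Ctrl points, and in the Srsf1 exon between 80.7% and 85.1%, while most other columns overlap and some, such as Tra2a, spread over nearly the whole scale within a group.

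Genes that act with these regulators were read from 4 further lists. Of 45 tested core spliceosome genes, 0 were called higher (background 1.36%) and 2 lower: Sf3a2, of the U2 particle, with gene totals of 23.1, 27.1 and 23.1 FPKM in Ctrl and 21.1, 13.1 and 13.8 FPKM in Gsk3sKO, and Snrpb, which encodes the Sm proteins B and B', with 47.3, 45.8 and 40.1 FPKM in Ctrl and 38.5, 31.4 and 23.9 FPKM in Gsk3sKO. Their log2 fold changes were -0.61 (limma, unadjusted p = 0.0162) and -0.51 (limma, unadjusted p = 0.0245), and the median of the list was -0.11. Of 8 tested kinases that phosphorylate SR proteins 0 were called, including Srpk1, Srpk2, Clk1, Clk4 and Dyrk1a. The groups did not overlap in 1 of the 8, Clk1, at 17.2, 17.2 and 18.9 FPKM in Ctrl and 11.8, 15.1 and 14.3 FPKM in Gsk3sKO (limma, unadjusted p = 0.0602), beside 12% of all gene totals. Without overlap were also 2 of the 45 core spliceosome genes, 3 of 16 decay factors and 6 of 48 other regulators. Of 16 tested factors of nonsense-mediated decay, 2 were called lower, the exon junction proteins Eif4a3 at 36.8, 38.3 and 38.7 FPKM in Ctrl and 34.7, 22.1 and 21 FPKM in Gsk3sKO and Casc3 at 22.7, 17.1 and 17.5 FPKM in Ctrl and 15.3, 11.1 and 15.1 FPKM in Gsk3sKO, with log2 fold changes of -0.57 (limma, unadjusted p = 0.0208) and -0.44 (limma, unadjusted p = 0.0494). Of 48 tested other splicing regulators, 1 was called higher and 1 lower. The lower one was Raver2, a partner of Ptbp1, at 3.33, 3.04 and 2.15 FPKM in Ctrl and 1.46, 1.53 and 1.29 FPKM in Gsk3sKO (limma log2 fold change -0.65 ± 0.27 SE, unadjusted p = 0.0414, adjusted p = 0.75). The higher one was Tardbp, the gene of TDP-43, which binds UG repeats and limits its own RNA, at 17.1, 11.9 and 15.9 FPKM in Ctrl and 48.8, 43 and 21.3 FPKM in Gsk3sKO (limma log2 fold change 1.21 ± 0.30 SE, unadjusted p = 0.00351, adjusted p = 0.511). All 3 Gsk3sKO libraries lay above all Ctrl libraries, with replicate 3 nearest to Ctrl. Over all gene totals 5.2% were called lower, no difference of these lists from that share was tested, and none of these genes had an adjusted p under 0.05.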

How the data were processed

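RNA bound to hemagglutinin-tagged ribosomes of mPFC D2 neurons was sequenced in 3 Ctrl and 3 Gsk3sKO libraries (Illumina TruSeq Stranded total RNA kit). The authors deposited 1 table of FPKM per transcript and library, and the submitters' processing notes name HISAT2 2.1.0, SAMtools 1.9, StringTie 1.3.4d and GRCm38. Columns with the authors' own fold changes, p-values and q-values were not used, and 0 columns of library values were left out. The depth is unknown because low FPKM did not come out as whole reads, so no counting interval is given.

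Member FPKM were summed by gene identifier. Transcript types, exons and sequences came from GENCODE M21 (GRCm38), which held 443 of the 444 member transcripts. limma 3.58.1 in R 4.3.3 (moderated, with a mean-variance trend) was fitted over the whole table on log2(FPKM + 1) for features with a mean of at least 1 FPKM. For the unproductive share and exon inclusion it was fitted on percentages, moderated without a trend. Benjamini-Hochberg adjustment ran over all features tested. Fold changes on log2(FPKM + 1) understate those of low genes. The exact permutation test of 3 against 3 libraries cannot go below 0.1, and all tests were 2-sided. The fits were tested on simulated data.

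The members, gene lists and tests were chosen with earlier results of these data known. The exon inclusion measure and the grouping by start codon were added after the values had been seen. The text names every member gene total, transcript and share with an unadjusted p under 0.05, the 2 genes with the highest Ctrl total of each family, all genes of the neuronal families, called genes of the other lists, and Gsk3b. Clk1, Hnrnpul1, Tra2a, Hnrnpk-214 and some of the features without overlap were named after their values were seen. Not every transcript or exon without overlap is named. Alternatives were another pseudocount, filter, scaling, moderation, transcript classes or scale, a replicate block, and leaving out each library.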

Additional observations from a re-analysis of the deposited data

How the results depend on the processing

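The number of called transcripts of members was 9, and 5 without moderation of the variance, and it ranged from 8 to 14 when 1 library was left out. Of all transcripts, 5.56%, 5.1% and 4.14 to 8.03% were called in these settings. The number of called gene totals was 1, but 2 with no filter, 2 with no moderation, neither of them Hnrnpk, 0 after median-ratio rescaling and 0 with moderation without a trend, and it ranged from 0 to 2 with 1 library left out. Of all gene totals, 6.56% were called in the main fit, and 4.2, 5.4, 6.3 and 6.59% in these 4 settings in turn. With 1 library left out the share of all was 4.46 to 9.13%. The number of genes with a called unproductive share was 1, but 0 when only nonsense-mediated decay and retained introns were counted, and it ranged from 1 to 4 with 1 library left out. Of all genes tested, 3.73%, 3.05% and 3.96 to 5.97% were called in the same settings. The number of called cassette exons was 2, but 1 on the arcsine scale and 1 with at least 5 FPKM, and it ranged from 2 to 4 with 1 library left out. Of all exons tested, 3.82%, 4.31%, 3.91% and 4.1 to 5.99% were called in the same settings. With the replicate number as a block, 10 transcripts, 1 gene total, 2 shares and 1 exon of the members were called (4.67, 1.89, 5.41 and 1.96%). Over all features the block fit called 5.11, 6.38, 3.8 and 3.38%. The calls of Srsf9-202, Hnrnpk-204, Hnrnpf-210 and the Srsf1 exon of 187 bases were lost with the block (limma, unadjusted p = 0.0528, 0.0572, 0.0503 and 0.101). Deviations of same-numbered libraries correlated by -0.03, -0.01 and -0.08 over gene totals, so the libraries share only a number and this fit is no paired test. Over the 13 called features, 120 of 158 alternatives kept the call, 38 lost it and 0 turned the direction. Without moderation the calls of Hnrnpa3-201, Hnrnpdl-202, Hnrnpdl-207, Hnrnpk-205, Hnrnpf-210 and the Hnrnpk gene total were lost (unadjusted p from 0.0503 to 0.0739). With a pseudocount of 0.1 the log2 fold change of Hnrnpf-210 was -3.91. The sign of 32 of the 53 gene totals changed in at least 1 alternative, none of them called. The cause of these changes was not tested. The unknown depth limits the low transcripts most, and short or overlapping models share reads that the FPKM divide by estimation.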
